A study of Mus musculus with 2 samples.

Results

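The genes described here are the 3 leucine-rich repeat receptors *Lgr4*, *Lgr5* and *Lgr6*, the 4 R-spondin ligands *Rspo1* to *Rspo4*, and the 2 transmembrane ubiquitin ligases *Znrf3* and *Rnf43*. They were chosen by gene symbol, and all 9 had exactly 1 row among the 18498 rows of the deposited table, of which 18043 carry a symbol. Their expression was compared between the circumvallate papillae (CvP) of the mouse tongue, the large posterior papillae that carry many taste buds, and tongue epithelium without papillae (Epi). Both tissues came from male C57BL/6J mice of 12 to 30 weeks, for which no transgene, deletion or treatment is named. RNA of 20 or more mice was pooled for each tissue and sequenced as 1 poly(A) library, so the animals in a pool cannot be told apart and no difference has a replicate check or a p-value. In pooled bulk RNA, fewer cells of a type and less RNA per cell cannot be told apart.

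R-spondins are secreted proteins that amplify Wnt signals. Without them, *Znrf3* and *Rnf43* mark Frizzled receptors for removal from the cell surface. An R-spondin binds an Lgr receptor and a ligase together, the ligase is cleared, and more Frizzled remains to receive Wnt. *Lgr5* is widely used as a marker of stem cells in renewing epithelia, among them the posterior taste papillae, *Lgr6* marks stem or progenitor cells of skin and of taste epithelium, and *Lgr4* is found more broadly in epithelia.

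All levels are in RPKM, a read density corrected for the length of the exon model and for library size. The spacing of the lowest values gave about 28375300 mapped CvP reads and 27909800 mapped Epi reads, and a count of 3 reads was taken as the limit that 0 allows. Ratios are CvP over Epi, with 95% exact (Clopper-Pearson) binomial intervals from estimated reads that cover counting error only. Unless stated, reads were estimated on the shorter of the length listed in the table and the longest annotated transcript. Low values of short rows fitted the listed length better, so reads of genes listed as longer than their transcript may be underestimated. Over the 10363 rows with an RPKM of at least 1 in both libraries the median ratio was 1.31, a shift of 0.39 on the log2 scale, so single ratios are also given divided by this median. Of the 12549 rows with an RPKM of 1 or more in a library, 78.1% were higher in the CvP and 56.8% exceeded the median ratio. All 14 listed taste bud markers were more than 3-fold higher in the CvP (as were 15.9% of these rows), with summed RPKM of 698 against 6.82, and 4 of them (*Kcnq1*, *Pkd2l1*, *Snap25* and *Ddc*) were listed at 0 in the Epi. *Krt18* and *Gnat3* were the highest, at 161 and 127 in the CvP against 0.62 and 0.03. Other listed tissues also differed between the libraries. All 7 skeletal muscle genes past RPKM 1, led by *Acta1* (0.86 in the CvP against 12.9 in the Epi) and *Ckm* (0.67 and 10.6), and 3 of 5 salivary gland genes, led by *Lipf* (1.96 and 313) and *Amy1* (0.85 and 80.5), were more than 3-fold higher in the Epi (as were 1.96% of all such rows). The other 2 salivary gland genes, *Pigr* (12.0 and 0.54) and *Aqp5* (6.09 and 0.69), were more than 3-fold higher in the CvP. Of 6 immune genes past RPKM 1, 5 were more than 3-fold higher in the CvP, among them *Lyz2* (132 and 0.43), whereas *Cd68* (10.8 and 4.45) was not. Apart from *Entpd2* (54.8 and 4.53), *Mylpf* (1.63 and 7.12), *Lipf* and *Cd68*, each of these genes passed RPKM 1 only in the library where it was higher. For such genes the filter favours the direction stated. What part these tissues had in the values below was not tested.

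The 3 receptors had 3 different patterns. *Lgr5* was present in the CvP and nearly absent from the Epi, *Lgr6* was several-fold higher in the CvP, and *Lgr4* was present in both libraries at a somewhat lower level in the CvP. The ligases were present in both tissues with a modest excess in the CvP. The 4 R-spondins were at or near 0 in both.

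**Figure D1:**
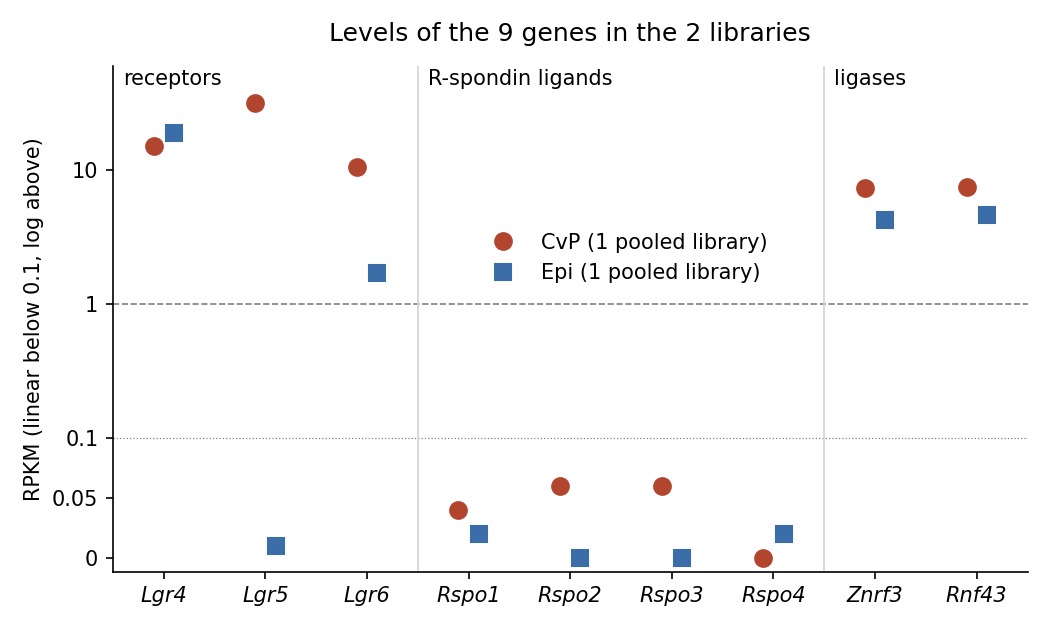
RPKM of each gene (vertical axis, linear below 0.1 and logarithmic above) in the CvP library (circles) and the Epi library (squares), with 1 pooled library per point and a dashed line at RPKM 1. The receptors and ligases lie above RPKM 1 in the CvP, *Lgr5* drops to 0.01 in the Epi, and no R-spondin exceeds 0.06.

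The receptors share their architecture, so the sequences are shown first to see whether reads of one could be taken for another. Each has a representative GENCODE M1 transcript of 18 exons, with 951 codons in *Lgr4*, 907 in *Lgr5* and 967 in *Lgr6*. Of the aligned coding bases, 53.9% were identical between *Lgr4* and *Lgr5*, 59.3% between *Lgr5* and *Lgr6*, and 52.6% between *Lgr4* and *Lgr6*. Coding stretches of 75 bases, the length of 1 read, were compared between the 3 only where they began at an aligned codon and held no gap. The one in which the 3 genes are most alike within a single exon lies in exon 5 of each. It is printed in the direction of the gene, with capitals at every base that is not the same in all 3:

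*Lgr4* (NCBI37/mm9 chr2:109836841-109836915, plus strand, coding bases 532 to 606): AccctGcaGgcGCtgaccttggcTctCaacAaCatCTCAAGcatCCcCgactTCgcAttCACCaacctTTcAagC

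*Lgr5* (NCBI37/mm9 chr10:114915454-114915528, minus strand, coding bases 559 to 633): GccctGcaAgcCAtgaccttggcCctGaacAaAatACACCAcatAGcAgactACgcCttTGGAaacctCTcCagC

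*Lgr6* (NCBI37/mm9 chr1:136923640-136923714, minus strand, coding bases 559 to 633): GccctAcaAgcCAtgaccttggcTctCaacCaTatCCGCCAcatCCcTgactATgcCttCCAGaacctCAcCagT

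Coding base 1 is the A of the ATG. In this stretch 46 of 75 bases were the same in all 3, and *Lgr5* and *Lgr6* differed at 17 positions, *Lgr4* and *Lgr6* at 23, and *Lgr4* and *Lgr5* at 24. When every 75-base window of the 9 transcripts was compared with all protein-coding transcripts of other genes, allowing 2 mismatches, 0 windows of 8 of the genes had a match. The exception was *Lgr5*, where 57 of 4640 windows (1.23%) matched transcripts of many unrelated genes, none of them another of the 9. No exon of the 9 genes shares bases with an exon of another annotated gene in GENCODE M1, although rows of other genes lie within 20 kb of *Lgr4*, *Lgr5*, *Lgr6*, *Znrf3* and *Rnf43*. For the receptors and ligases the length listed in the table exceeded the 1 transcript scanned, as for *Lgr5* at 13.67 kb against 4714 bases. Sequence outside the scanned transcripts was not checked for shared windows.

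*Lgr5* (chromosome 10, 114887370 to 115024836, minus strand) had an RPKM value of 31.3 in the CvP against 0.01 in the Epi. It was the highest of the 9 genes in the CvP, above 90.4% of all rows, and above only 11.9% of rows in the Epi. About 4258 reads stood behind the CvP value and about 1 behind the Epi value when reads were estimated on the annotated transcript, and about 12145 and 4 when they were estimated on the length listed in the table. The quotient was 3131, with an interval from 751 to 165461 on the transcript and from 1166 to 10962 on the listed length. Because RPKM is deposited to 2 decimals, rounding of the Epi value alone allows a quotient from 2087 to 6263. The size of the fold is therefore uncertain, and the lowest of these limits was 751. Divided by the median ratio, the quotient was 2385 with a lower limit of 572.

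*Lgr6* (chromosome 1, 136882930 to 137001853, minus strand) had an RPKM value of 10.6 in the CvP against 1.70 in the Epi. That was about 1091 and 172 reads on the transcript, and about 2998 and 473 on the listed length. The ratio was 6.24 (95% interval 5.31 to 7.37 on the transcript, 5.66 to 6.88 on the listed length). After division by the median ratio it was 4.75 (4.04 to 5.61 on the transcript). In contrast to *Lgr5*, *Lgr6* was clearly present in epithelium without papillae.

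*Lgr4* (chromosome 2, 109757804 to 109854414, plus strand) had an RPKM value of 15.0 in the CvP against 18.9 in the Epi. That was about 2159 and 2675 reads on the transcript, and about 4426 and 5482 on the listed length. *Lgr4* was the only one of the 5 expressed genes that was higher in the Epi, with a ratio of 0.794 (0.750 to 0.840). Divided by the median ratio it was 0.605 (0.571 to 0.640). With RPKM rescaled to the same sum in each library it was 0.958, with an interval from 0.904 to 1.01 that includes equality. These intervals used reads estimated on the transcript. On the listed length the interval of the deposited ratio narrowed to 0.763 to 0.826, and the rescaled interval was not calculated. The ratio of *Lgr4* was thus below 1 under each of the 3 scalings. Its interval reached 1 only under the last, with reads estimated on the transcript. The lower limits of *Lgr5* and *Lgr6* stayed above 4 under each.

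**Figure D2:**
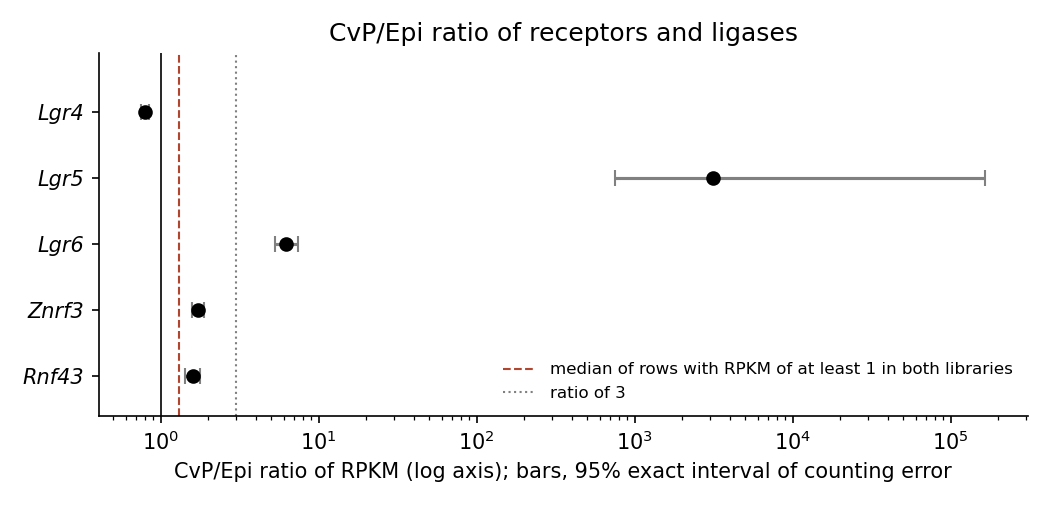
CvP/Epi ratio of RPKM (log axis) for the 5 genes that reached RPKM 1 in a library, with bars for the 95% exact interval of counting error, a solid line at 1, a dashed line at the median ratio of 1.31 and a dotted line at 3. *Lgr4* lies below 1, *Znrf3* and *Rnf43* lie between the median and 3, and *Lgr6* and *Lgr5* lie above 3.

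The makeup of the receptor pool differed between the tissues. The 3 receptors together had a summed RPKM of 56.95 in the CvP, of which *Lgr5* was 55.0%, *Lgr4* 26.4% and *Lgr6* 18.6%. In the Epi the sum was 20.65, of which *Lgr4* was 91.7%, *Lgr6* 8.23% and *Lgr5* 0.0484%. Without *Lgr5* the sums were 25.6 and 20.6, so most of the 2.76-fold excess of receptor transcripts in the CvP was *Lgr5*.

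The ligases *Znrf3* (chromosome 11, 5176332 to 5344850, minus strand) and *Rnf43* (chromosome 11, 87476589 to 87549041, plus strand), the 2 genes whose products remove Frizzled from the cell surface, were alike in level as deposited, with *Rnf43* at 1.01 times *Znrf3* in the CvP library and 1.09 times in the Epi library, but at 1.82 and 1.97 times per longest transcript. The RPKM of *Znrf3* was 7.34 in the CvP against 4.25 in the Epi, a ratio of 1.73 (1.58 to 1.89). That of *Rnf43* was 7.41 and 4.65, a ratio of 1.59 (1.43 to 1.77). Divided by the median ratio, the excess narrowed to 1.32 (1.20 to 1.44) for *Znrf3* and 1.21 (1.09 to 1.35) for *Rnf43*. The sum of both ligases was 14.75 in the CvP against 8.90 in the Epi, and the receptor sum divided by the ligase sum was 3.86 and 2.32.

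**Figure D3:**
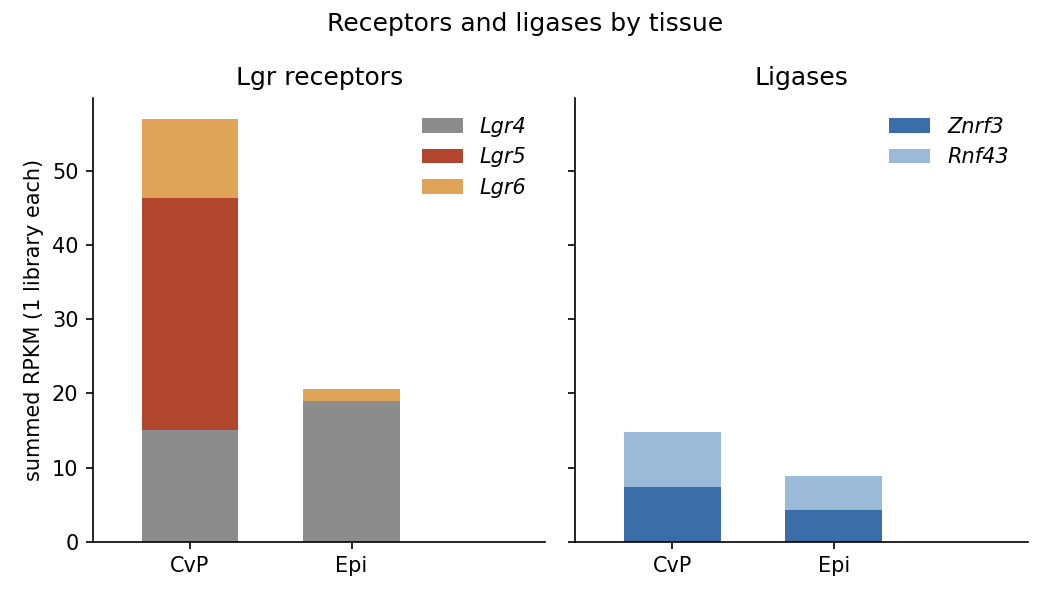
Summed RPKM (vertical axis, from 0) of the 3 receptors (left) and the 2 ligases (right) in the CvP and the Epi, with 1 pooled library per bar and colours for the genes. The receptor bar is 56.95 in the CvP, 55.0% of it *Lgr5*, and 20.65 in the Epi, 91.7% of it *Lgr4*, while *Znrf3* and *Rnf43* take similar shares of both ligase bars.

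The R-spondins, the ligands of these receptors, were close to the limit of detection. *Rspo1* (chromosome 4, 124663674 to 124686343, plus strand) had an RPKM value of 0.04 in the CvP against 0.02 in the Epi, about 2 reads and 1 read. *Rspo2* (chromosome 15, 42852341 to 43002364, minus strand) had 0.06 and 0, about 6 reads and 0. *Rspo3* (chromosome 10, 29172913 to 29255673, minus strand) had 0.06 and 0, about 4 reads and 0. *Rspo4* (chromosome 2, 151668663 to 151700404, plus strand) had 0 in the CvP against 0.02 in the Epi, about 0 reads and 1 read. All 4 together held about 12 reads in the CvP against 2 in the Epi. A count of 0 allows an RPKM of up to 0.0323 for *Rspo2* and 0.0449 for *Rspo3* in the Epi, and up to 0.0446 for *Rspo4* in the CvP. Against that limit *Rspo2* was at least 1.86-fold higher in the CvP, and the lower bound of its counting interval was 1.16, which fell to 0.882 after division by the median ratio. For *Rspo3* the lower bound was 0.649, so a difference was not detectable at this depth, and no fold is given for *Rspo1* and *Rspo4*, with 3 or fewer reads in both libraries. Levels this low were common in the table: 12.3% of rows with a gene symbol were at or below 0.06 in both libraries.

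R-spondins are made in many organs by stromal cells, so markers of stroma, vessels and nerve were read beside them. Of 10 fibroblast markers, 6 were below RPKM 1 in both libraries, and the collagen genes *Col1a1*, *Col1a2* and *Col3a1* ran from 0.04 to 0.06 in the CvP and from 0.17 to 0.25 in the Epi, with *Lum* listed at 0 in the CvP. The summed level of the list was 50.7 in the CvP against 134 in the Epi, most of it *Dcn* (26.1 and 128) and *Fbln1* (18.5 and 2.79). Of the 4 genes past RPKM 1, only *Dcn* was higher in the Epi, while *Fbln1*, *Vim* (3.99 and 2.79) and *Pdgfra* (a ratio of 18.6, with 0.07 in the Epi) were higher in the CvP. Of 8 markers of endothelium and mural cells, 7 were below RPKM 1 in both, with sums of 3.25 and 1.10, led by *Tek* (2.49 and 0.07) and *Acta2* (0.39 and 0.51). Of 10 markers of glia and nerve, 5 were below RPKM 1 in both, with sums of 25.4 and 51.6, led by *Tubb3* (4.58 and 40.4) and *Mbp* (10.3 and 8.94). Of the 5 past RPKM 1, only *Tubb3* was higher in the Epi, while *Mbp*, *Ngfr* (5.47 and 1.94), *Nefl* (2.32 and 0) and *Ncam1* (1.39 and 0) were higher in the CvP. Of all rows past that filter, 78.1% were higher in the CvP. *Pdgfra*, *Tek*, *Nefl* and *Ncam1* passed it through their CvP values alone. The collagen genes, the endothelial genes *Cdh5* (0.02 and 0.06) and *Kdr* (0.04 and 0.02) and the glial gene *Sox10* (0.18 and 0.08) were thus near 0 in both libraries, while *Dcn*, *Fbln1*, *Tek*, *Tubb3* and *Mbp* were not. What part the amount of stroma had in the R-spondin values was not tested.

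When RPKM 1 had to be reached in 1 library or both, 5 of the 9 genes remained, the receptors and the ligases, and *Lgr5* passed through its CvP value alone. Of these 5, a CvP/Epi ratio above 3 was found in 2, *Lgr5* and *Lgr6*, and an Epi/CvP ratio above 3 in 0. Among all 12549 rows past the same filter, 15.9% had a ratio above 3 and 1.96% had the opposite. The criteria named in the study were a CvP RPKM above 10 and a ratio above 3. In the deposited values *Lgr5* and *Lgr6* met both, as did 2.35% of all rows. *Lgr6* met the RPKM minimum narrowly, at 10.6, and *Lgr4* met it without meeting the ratio. The paper reports a larger set of genes under the same criteria, so this share is not the size of its candidate set. The cause of that difference was not tested. The median log2 ratio of the 5 genes, with a pseudocount of 0.1, was 0.77, beside 0.50 over all rows past the filter.

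Within the CvP the levels fell in the order *Lgr5*, *Lgr4*, *Lgr6*, *Rnf43*, *Znrf3*. *Lgr5* was 2.08 times *Lgr4* (1.98 to 2.19), *Lgr4* was 1.42 times *Lgr6* (1.32 to 1.53), and *Lgr6* was 1.43 times *Rnf43* (1.31 to 1.56), whereas *Rnf43* and *Znrf3* did not differ beyond counting error (1.01, 0.927 to 1.10). In the Epi the order was *Lgr4*, *Rnf43*, *Znrf3*, *Lgr6*. *Lgr4* was 4.07 times *Rnf43* (3.72 to 4.47), *Rnf43* and *Znrf3* again overlapped in their counting error (1.09, 0.978 to 1.22), and *Znrf3* was 2.50 times *Lgr6* (2.12 to 2.97). Below these, *Lgr5* in the Epi and the R-spondins in both libraries could not be ordered at this depth. The intervals between genes used reads estimated on the transcript, about 559 for *Rnf43* and 749 for *Znrf3* in the Epi. On the listed length these were about 1302 and 965. The narrower interval of that length was not calculated, so the overlap of *Rnf43* and *Znrf3* holds for the transcript estimate only. Levels between genes depend on the length used. The listed length was 2.85 times the longest annotated transcript for *Lgr5*, 2.75 times for *Lgr6*, 2.33 times for *Rnf43*, 2.05 times for *Lgr4* and 1.29 times for *Znrf3*, while for the R-spondins it was 1.00 times. If all reads had fallen on the longest transcript, the CvP levels would be 89.3 for *Lgr5*, 30.8 for *Lgr4*, 29.1 for *Lgr6*, 17.2 for *Rnf43* and 9.46 for *Znrf3*, and the Epi levels 38.8 for *Lgr4*, 10.8 for *Rnf43*, 5.48 for *Znrf3* and 4.67 for *Lgr6*. The order was the same as with the deposited values, but the gaps between *Lgr4* and *Lgr6* in the CvP and between *Znrf3* and *Lgr6* in the Epi narrowed, and *Rnf43* moved away from *Znrf3*.

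The rows with the values most like each receptor were found by distance on the log2(RPKM + 0.1) scale over the 2 libraries, among 12248 rows with a symbol. Few rows matched *Lgr5* in both levels, with 7 within a distance of 0.5. A high CvP value with an Epi value near 0 was not particular to *Lgr5*. It was also found in several taste bud markers, among them *Trpm5* (37.8 and 0.01) and *Pkd2l1* (16.8 and 0), though not in *Entpd2* (54.8 and 4.53). The rows nearest to *Lgr5* were *Cxcl5*, a chemokine (33.5 and 0), *Vil1*, the microvillus protein villin (31.3 and 0.03), and the keratin *Krt20* (26.8 and 0). *Lgr6* had 55 rows within that distance, the nearest being *Me2*, *Cmtm4* and *Acsf2*, with ratios from 5.85 to 6.22. *Lgr4* had 624, the nearest being *Hdac5*, *Hace1* and *Cdca7*, with ratios from 0.811 to 0.826. A likeness over 2 libraries is a description of level only.

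Other genes of the family and the pathway were taken from fixed lists. The more distant Lgr genes, receptors of glycoprotein hormones and relaxins, were not seen at a level above 0.02: *Tshr*, *Rxfp1* and *Rxfp2* had 0 to 2 reads per library, and *Fshr* and *Lhcgr* had no row. Of the 12 Wnt receptors, the Frizzled genes on which the ligases act and the co-receptors *Lrp5* and *Lrp6*, 11 passed RPKM 1 in either library and all 11 were higher in the CvP as deposited, but only 8 of 11 exceeded the median ratio of 1.31 (not *Fzd5*, *Fzd6* and *Lrp5*), beside 78.1% and 56.8% of all rows past the filter. Their median log2 ratio was 0.59, close to the 0.50 of all rows. A ratio above 3 was found in 2 of the 11, beside 15.9% of all rows past the filter. They were *Fzd1*, at 49.5 in the CvP against 10.03 in the Epi (4.94, 4.64 to 5.25), and *Fzd4*, at 3.72 and 0.57 (6.53, 4.92 to 8.68). *Fzd4* passed the filter through its CvP value alone. *Fzd6* (24.0 and 20.6) and *Lrp5* (29.1 and 23.3) followed *Fzd1* in level in the CvP and were the highest of the list in the Epi, with ratios of 1.16 and 1.25. Of the other Frizzled genes, *Fzd2*, *Fzd3*, *Fzd5*, *Fzd7*, *Fzd8* and *Fzd10* had ratios from 1.29 to 2.83, and *Fzd9* stayed at or below 0.10.

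Among the adaptors and co-receptors, Dishevelled proteins link the ligases to Frizzled, and *Sdc4* encodes a syndecan that can bind R-spondins. *Dvl1* had 37.7 in the CvP against 18.0 in the Epi (ratio 2.10), *Dvl2* 5.71 and 2.11 (2.71), *Dvl3* 15.7 and 12.3 (1.27), *Sdc4* 96.3 and 61.8 (1.56) and the glypican gene *Gpc3* 12.2 and 15.1 (0.809). None of the 5 passed a ratio of 3 in either direction, 3 of 5 exceeded the median ratio, beside 56.8% of all rows, and their median log2 ratio was 0.64.

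The listed genes downstream of beta-catenin did not move as 1 group. Of 18, 17 had a row and 16 passed RPKM 1, of which 6 had a CvP/Epi ratio above 3, 1 an Epi/CvP ratio above 3 and 9 neither. Over all rows past the filter, 15.9% and 1.96% had such ratios. The median log2 ratio of the 16 genes was 0.51, that of all rows being 0.50. Of the 16, 11 were higher in the CvP as deposited and 8 above the median ratio, beside 78.1% and 56.8% of all rows. The 6 included feedback inhibitors of Wnt signalling, and all but *Notum* passed RPKM 1 through the CvP value alone. *Notum*, an enzyme that inactivates Wnt proteins, had 27.1 in the CvP against 3.26 in the Epi (8.32, 7.20 to 9.69). *Wif1*, a secreted Wnt inhibitor, had 15.1 and 0.06, the latter about 4 reads (252, 94.2 to 889.8). *Nkd1* and *Nkd2*, which bind Dishevelled, had 4.94 and 0.02, the latter about 2 reads (interval of the ratio 82.0 to 2462), and 4.54 and 0.41 (11.1, 8.17 to 15.3). The others were *Ephb2*, a guidance receptor of the intestinal crypt (8.85 and 0.62, a ratio of 14.3), and the transcription factor gene *Sox9* (3.46 and 0.74, a ratio of 4.68). The gene past 3-fold in the opposite direction was *Apcdd1*, a membrane inhibitor of Wnt, at 5.20 in the CvP against 43.9 in the Epi (0.118, 0.107 to 0.131). *Axin2*, the most general target of the pathway, had 2.73 and 2.35, and the interval of its ratio, 0.989 to 1.37, includes 1. *Lef1* (0.652), *Myc* (0.606), *Tnfrsf19* (0.755) and *Ephb3* (0.875) had ratios below 1, and the other 4 genes past the filter had ratios from 1.14 to 1.89.

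**Figure D4:**
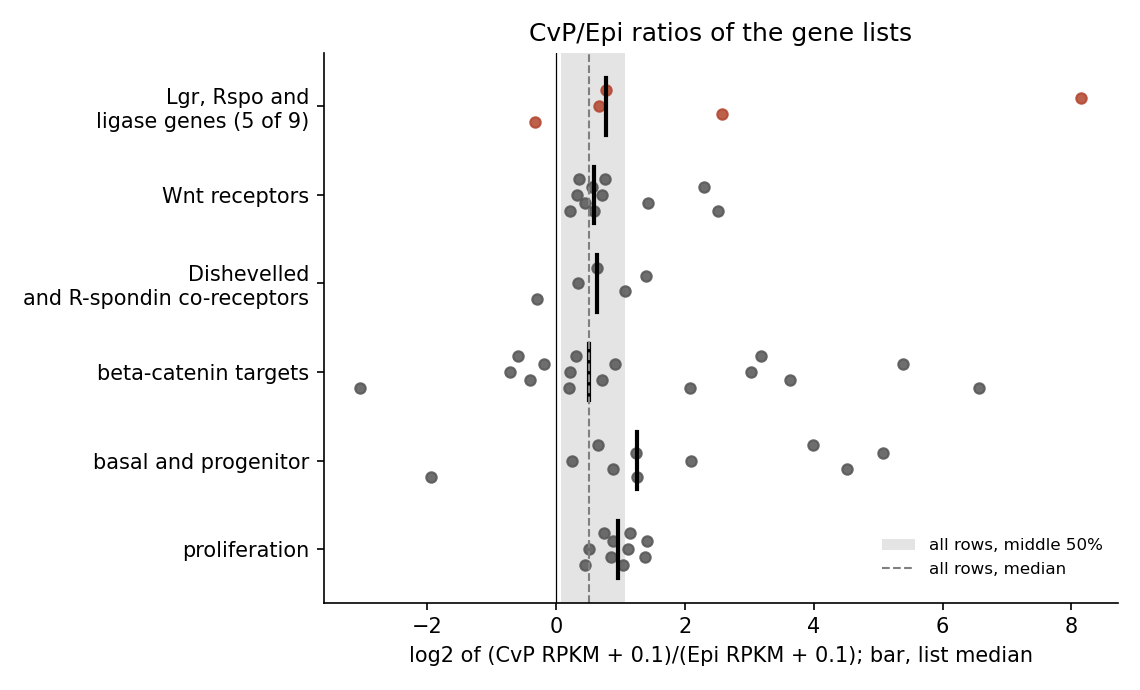
Log2 ratio of CvP to Epi RPKM with a pseudocount of 0.1 (horizontal axis), 1 point per gene that reached RPKM 1 in a library, by list, with a black bar at each list's median, a grey band for the middle 50% of all rows past that filter and a dashed line at their median of 0.50. *Lgr5* and *Lgr6* lie to the right of the band and *Lgr4* to its left, 8 of the 11 Wnt receptors lie in the band and *Fzd1*, *Fzd2* and *Fzd4* to its right, and the beta-catenin targets spread from -3.05 to 6.57.

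The cycling state of the tissues was read from 10 proliferation genes beside the stem cell receptors. None of the 10 passed a ratio of 3, with ratios from 1.36 for *Pcna* (28.9 and 21.2) to 2.95 for *Bub1*, and *Top2a* (14.7 and 5.63) at 2.61. All 10 exceeded the median ratio, beside 56.8% of all rows, and their median log2 ratio was 0.96. The excess of *Lgr5* and *Lgr6* in the CvP, at 6.24 and more, was thus larger than the ratio of any of these 10 genes. What part the number of cycling cells had in it was not tested.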

How the data were processed

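Poly(A) RNA was sequenced in single-end reads of 75 bp. The authors mapped the reads with Bowtie 0.12.7 to NCBI37/mm9 and deposited RPKM values that ERANGE calculated over exon models. The treatment of reads with several matches and any use of strand are not given in the sources used here. The deposited CvP/Epi quotient of the authors was not used.

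From the deposited RPKM, ratios, list medians and counts were calculated in Python 3.11.15 with pandas 2.3.3 and scipy 1.17.1. Depth came from the step between values in 163 rows of 0.1 kb. In rows of 0.5 to 1.5 kb listed at more than 1.3 times their longest GENCODE M1 transcript, 28 of 31 CvP values and 17 of 23 Epi values were whole reads on the listed length, within rounding plus 0.05 reads, against 12 of 38 and 12 of 35 on the transcript. Reads were nevertheless estimated on the shorter length, which gives wider intervals, and on the listed length as an alternative. Windows were mapped with bwa 0.7.19. The coding sequences are those of GENCODE M1, aligned with Biopython 1.88 by their encoded residues. Depth, interval and median estimates were tested on simulated data.

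The 9 genes and the lists were chosen with earlier results of these data known. The genes named were the 9, the 3 rows nearest to each receptor, up to 12 genes of each pathway list and the 2 highest of each marker list. Others (taste genes at 0, collagens, *Lum*, *Pdgfra*, *Vim*, *Ngfr*, *Nefl*, *Ncam1*, *Pigr*, *Aqp5*, *Cdh5*, *Kdr*, *Sox10*, *Bub1*, Hedgehog genes, *Sox2*, and keratinized genes beyond 2) were named after their values were seen. So were *Trpm5*, *Entpd2* and *Mylpf*.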

Additional observations from a re-analysis of the deposited data

How the results depend on the processing

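No paired analysis was possible because the CvP and the Epi were sequenced as 1 pool each, which also left no replicate to leave out. *Lgr5* and *Lgr6* were the genes past 3-fold under each scaling, each pseudocount, each minimum RPKM and each fold tried, with 1 exception. With no filter on low values 5 genes passed 3-fold. There *Rspo2* and *Rspo3* (higher in the CvP) and *Rspo4* (higher in the Epi) were added at 6 or fewer reads. Both receptors also met the criteria of the study under each scaling and at lower CvP minimums of 3 and 1. No setting lowered the CvP value of *Lgr6* (10.6) or raised the minimum of 10, so none could make *Lgr6* fail that minimum. Those criteria were not tried at other folds. Divided by the median ratio, the median log2 ratios were 0.39 for the members, 0.20 for the Wnt receptors and 0.13 for the beta-catenin targets, and rescaled to a common sum of 1000000 those of the members and the Wnt receptors were 1.05 and 0.86. Each such scaling shifts every ratio by one factor. With a pseudocount of 1 the ratio of *Lgr5* was 32.0 and that of *Lgr6* 4.30. Levels per longest transcript were an alternative chosen after the data were seen. Depth limits the R-spondins in both libraries and *Lgr5* in the Epi.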

Other observations

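Genes of the basal layer, where progenitors of tongue epithelium reside, were not uniform between the tissues. Of 10 listed basal and progenitor genes, 4 had a CvP/Epi ratio above 3, 1 an Epi/CvP ratio above 3 and 5 neither. Of all rows with an RPKM of 1 or more in a library, 15.9% and 1.96% had such ratios. The median ratio of 1.31 was exceeded by 8 of the 10 genes, beside 56.8% of these rows. The 4 were *Sox2*, a transcription factor of taste progenitors, at 82.0 in the CvP against 19.1 in the Epi (4.29, 95% interval 4.04 to 4.56), and 3 genes of Hedgehog signalling, namely the ligand *Shh* (3.61 and 0.01), its receptor *Ptch1* (27.5 and 1.64, a ratio of 16.8) and the effector *Gli1* (19.1 and 0.74, a ratio of 25.9). The Epi value of *Shh* rested on about 1 read, and *Shh* and *Gli1* reached RPKM 1 in the CvP alone. The basal keratins went apart, *Krt5* at 1506 and 1271 (1.19) and *Krt14* at 295 and 1140 (0.259).

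Of 8 genes of keratinized epithelium, 4 had an Epi/CvP ratio above 3, namely *Krt76*, *Lor*, *Rptn* and *Krt10*, and 0 had the opposite. The shares over all rows with an RPKM of 1 or more in a library were 1.96% and 15.9%. *Krt13* (17549 and 47815) and *Krt4* (11801 and 22406) were the highest of the list. None of these values has a replicate check.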
